A study of Homo sapiens with 2 samples.

Results

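Respiratory complex I (NADH:ubiquinone oxidoreductase) was described in A549 cells, which come from a human adenocarcinoma of the lung, and in the cisplatin-resistant A549/DDP line. The members were the genes named NDUFA, NDUFB, NDUFC, NDUFS, NDUFV or NDUFAF with a number. They were chosen by symbol and not by their signal, though with earlier results of these data known. RefSeq lists 44 such genes, of which 40 were read by at least 1 probe set with a single gene in the platform annotation, out of 19775 measured genes. NDUFC2, NDUFS5 and NDUFS8 were read only by probe sets that are annotated with several genes, and were not analysed here.

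Each line was hybridised on 1 Affymetrix array, A549 as the parental and A549/DDP as the chemoresistant phenotype. Both were cultured conventionally without a stated drug in the medium, and were detached with trypsin before RNA extraction. The arrays were named by their titles, although another label of the A549/DDP sample speaks of ZNF300 overexpression. ZNF300 had a log2 signal of 7.59 on the parental array and 5.76 on the array titled A549/DDP. The study describes this gene as higher in the resistant line, so the array is called A549/DDP-labelled throughout, and each direction rests on its title. With 1 array for each line no value has a replicate, no test between the lines was possible, and differences of line, culture and RNA sample cannot be told apart. The epithelial keratins KRT8 and KRT18 were above the floor on both arrays (the floor is each array's median signal, 6.22 and 6.18 on the log2 scale). EPCAM and CDH1 were above it on the parental array only, KRT19 was below it on both, and so were PTPRC, CD34 and PECAM1, markers of blood and endothelial cells.

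Complex I is the entry point of electrons into the mitochondrial respiratory chain. Its peripheral arm oxidizes NADH in the N module and passes the electrons along iron-sulfur clusters to ubiquinone in the Q module, and its membrane arm pumps protons. The core subunits carry out catalysis, the supernumerary subunits surround and stabilise them, and the assembly factors help to build the complex without remaining in it. Most subunits are encoded in the nucleus, and the hydrophobic core of the membrane arm is encoded in mitochondrial DNA.

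The expression of complex I genes differed little between the arrays. Of the 40 members, 28 (70.0%) were higher and 12 lower on the A549/DDP-labelled array. Of all 13159 expressed genes 50.4% were higher, and of the 5663 genes at least as bright as the dimmest member 52.2%. The median log2 difference was 0.11 for the members and 0.00 for all expressed genes. No member was 3-fold apart, the threshold of the study. At least 3-fold higher were 0 of 40, beside 2.14% of expressed genes, and at least 3-fold lower 0 of 40, beside 2.18%. With shares this small, 0 of 40 is near the background in both directions. At 1.5-fold, a log2 difference of 0.58, 5 members (12.5%) were higher beside 15.6% of expressed genes, and 2 members (5.0%) were lower beside 18.0%. Among the 5663 genes at least as bright as the dimmest member these shares were 13.9% and 14.8%. The share of higher members at 1.5-fold is therefore near the background. The SD of the difference was 0.40 over the members, against 0.74 over all expressed genes and 0.67 over the bright ones. Within 1.5-fold lay 33 members (82.5%), beside 66.4% of expressed genes and 71.4% of the bright ones.

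**Figure D1:**
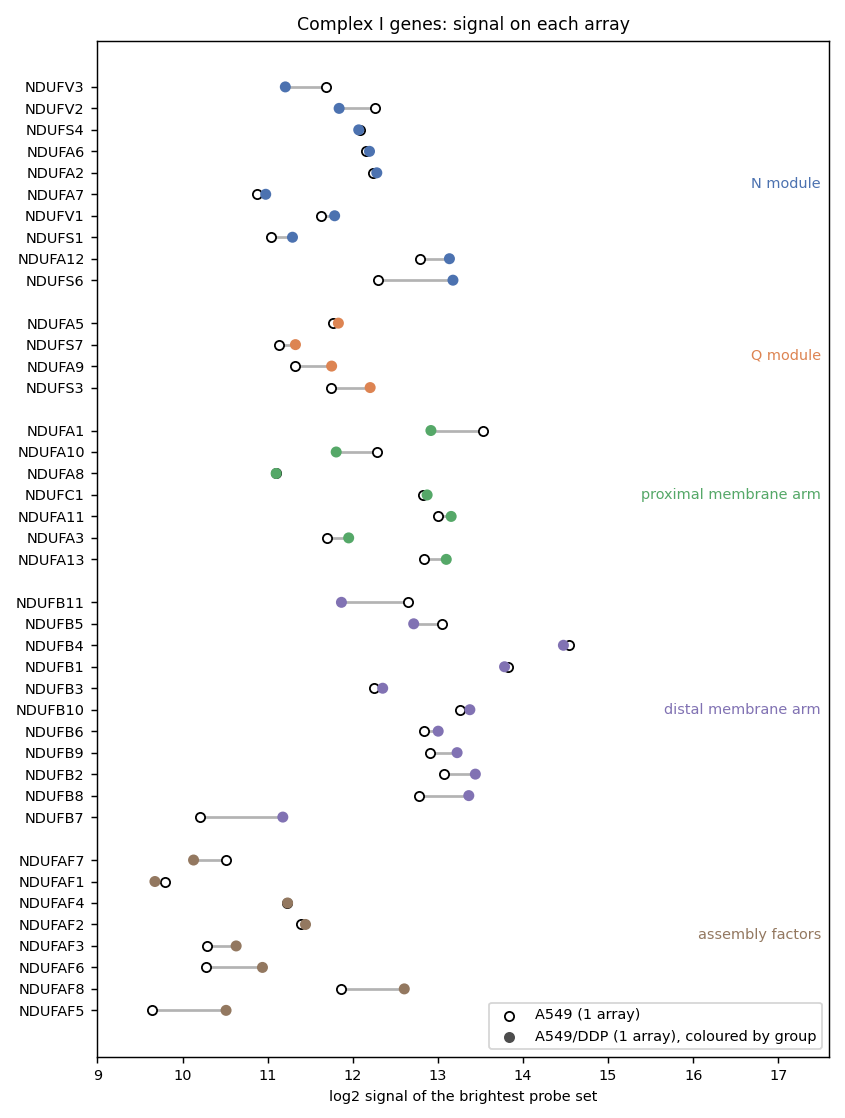
Log2 signal of the brightest probe set of each of the 40 complex I genes on the parental array (open circles) and on the A549/DDP-labelled array (filled circles), with a line joining the 2 values of a gene and genes grouped by their place in the complex. Every circle lies above the floor, and the longest lines belong to NDUFB7, NDUFS6 and NDUFAF5. The signals of different genes cannot be compared, because each has its own probes.

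All 40 members were above the floor on both arrays. For each member, the central 95% of differences among 154 to 2029 expressed genes of like brightness (mean log2 signal within 0.5) was taken as the range in which genes of that signal differed between the arrays. Its lower bound lay between -1.52 and -1.09 and its upper bound between 0.81 and 1.71, and 40 of the 40 members lay inside their range. The difference also varied between probe sets for the same gene, with a median SD of the difference of 0.28 over the 16 members with 2 or more probe sets above both floors. This SD covers scatter within the same 2 arrays only, not the spread between cultures or RNA samples. The member just past 1.5-fold was NDUFA1, at 0.61 in size, and the one just short of it NDUFB8, at 0.58.

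In the NADH-oxidizing module all 10 listed genes were measured, with a median difference of 0.07, 7 higher and 3 lower. NDUFS6, a zinc-binding subunit of this module, had a log2 signal of 12.30 on the parental array and 13.18 on the A549/DDP-labelled array. It was 1.84-fold higher on the latter by its 1 probe set. Among the core subunits, NDUFV2 differed in direction from NDUFV1 and NDUFS1. NDUFV1, which binds NADH and flavin, had 11.62 and 11.79, a difference of 0.16. NDUFV2, which carries an iron-sulfur cluster, had 12.26 and 11.84, and was 1.34-fold lower. NDUFS1, the large iron-sulfur subunit, had 11.04 and 11.29, and its 4 probe sets above the floor on both arrays were all higher, by differences from 0.25 to 0.78. Another NDUFS1 probe set, below the floor on the A549/DDP-labelled array, went the other way, from 6.59 to 6.07. Of these 3 core subunits none was past 1.5-fold by its brightest probe set. The accessory subunit NDUFV3 was lowest in the group, with 11.68 and 11.21, but its 2 probe sets differed in sign (-0.47 and 0.22). NDUFA12 was 1.27-fold higher. The remaining accessory subunits lay near no difference, NDUFS4 at -0.02, NDUFA2 and NDUFA6 at 0.04 and NDUFA7 at 0.10. A dimmer probe set of NDUFA6 was past 1.5-fold (0.72). For NDUFA7 a dim probe set, below the floor on the A549/DDP-labelled array, went the other way, from 6.52 to 4.09.

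The 4 measured genes of the ubiquinone module were all higher on the A549/DDP-labelled array, with a median difference of 0.31 and none past 1.5-fold. NDUFS3, a core subunit, had a log2 signal of 11.74 on the parental array and 12.20 on the other, a fold of 1.38. NDUFS7, the core subunit that holds the last iron-sulfur cluster before ubiquinone, had 11.13 and 11.33, a difference of 0.20. The accessory subunits were 1.35-fold higher in NDUFA9, with 11.32 and 11.75, and close to no difference in NDUFA5, with 11.76 and 11.83. The direction was thus shared, but each of these 4 genes was read by 1 probe set above the floor on both arrays.

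The proximal membrane arm, next to the peripheral arm, had a median difference of 0.05 over 7 measured genes. NDUFA1, a short membrane-spanning subunit encoded on the X chromosome, had a log2 signal of 13.52 on the parental array and 12.92 on the A549/DDP-labelled array, and was 1.52-fold lower. NDUFA10, with 12.28 and 11.80, was 1.39-fold lower. For NDUFA10 a dim probe set, below the floor on the parental array, went the other way, from 5.72 to 6.98. The third lower member, NDUFA8, was equal on both arrays to 2 decimals (0.00), and the other 4 were higher. NDUFA13, also known as GRIM-19, was 1.20-fold higher, with 12.84 and 13.10. NDUFA3 differed by 0.25, NDUFA11 by 0.16 and NDUFC1 by 0.05. A dim probe set of NDUFC1 was past 1.5-fold (0.76).

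The distal membrane arm held both the highest and the lowest member of the whole complex. NDUFB7, an accessory subunit at the outer face of the arm, had a log2 signal of 10.20 on the parental array and 11.18 on the A549/DDP-labelled array, a fold of 1.97. Its second probe set was below the floor on the parental array, and went in the same direction (at least 0.28, since the parental value was raised to the floor). NDUFB11, encoded on the X chromosome, had 12.65 and 11.87, and was 1.72-fold lower by its 1 probe set. NDUFB8 had 12.78 and 13.36, and its 3 probe sets were all higher, with differences of 0.58, 0.63 and 0.79. NDUFB2 was also higher by each of its 3 probe sets (0.37, 0.42 and 0.65). Among the others, NDUFB9 (0.32), NDUFB6 (0.17), NDUFB10 (0.12) and NDUFB3 (0.10) were slightly higher and NDUFB5 (-0.33) was lower. NDUFB4 (-0.07) and NDUFB1 (-0.04) were nearly equal on both arrays by their bright probe set, while their dim one was higher (0.47 and 0.44). The median over the 11 genes was 0.12.

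The assembly factors contributed 3 of the 5 members past 1.5-fold in the higher direction, with a median of 0.19 over 8 genes. Past 1.5-fold in this direction were 15.6% of expressed genes and 13.9% of those at least as bright as the dimmest member. All 3 lay inside the range of genes of like brightness, with upper bounds of 1.71 for NDUFAF5, 1.46 for NDUFAF6 and 1.07 for NDUFAF8. The group median was -0.03 with the dimmest probe set and with the median over probe sets. NDUFAF5, a methyltransferase-like factor that hydroxylates NDUFS7, had a log2 signal of 9.64 on the parental array and 10.51 on the A549/DDP-labelled array. It was 1.83-fold higher, and a further probe set gave a difference of 0.80. NDUFAF6, needed early in assembly, had 10.28 and 10.94, and was 1.58-fold higher, with a dimmer probe set at 1.07. NDUFAF8, a partner of NDUFAF5, had 11.86 and 12.60, and was 1.67-fold higher by its bright probe set. A dim probe set of NDUFAF8 went the other way, from 6.95 to 6.29, so its direction depends on the probe set used. NDUFAF7, a mitochondrial methyltransferase, was lower by each of its 3 probe sets, with differences of -0.39, -0.44 and -0.57. NDUFAF3 was 1.26-fold higher, NDUFAF1 differed by -0.12, NDUFAF2 by 0.05 and NDUFAF4 by 0.00 (-0.38 by a second probe set).

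**Figure D2:**
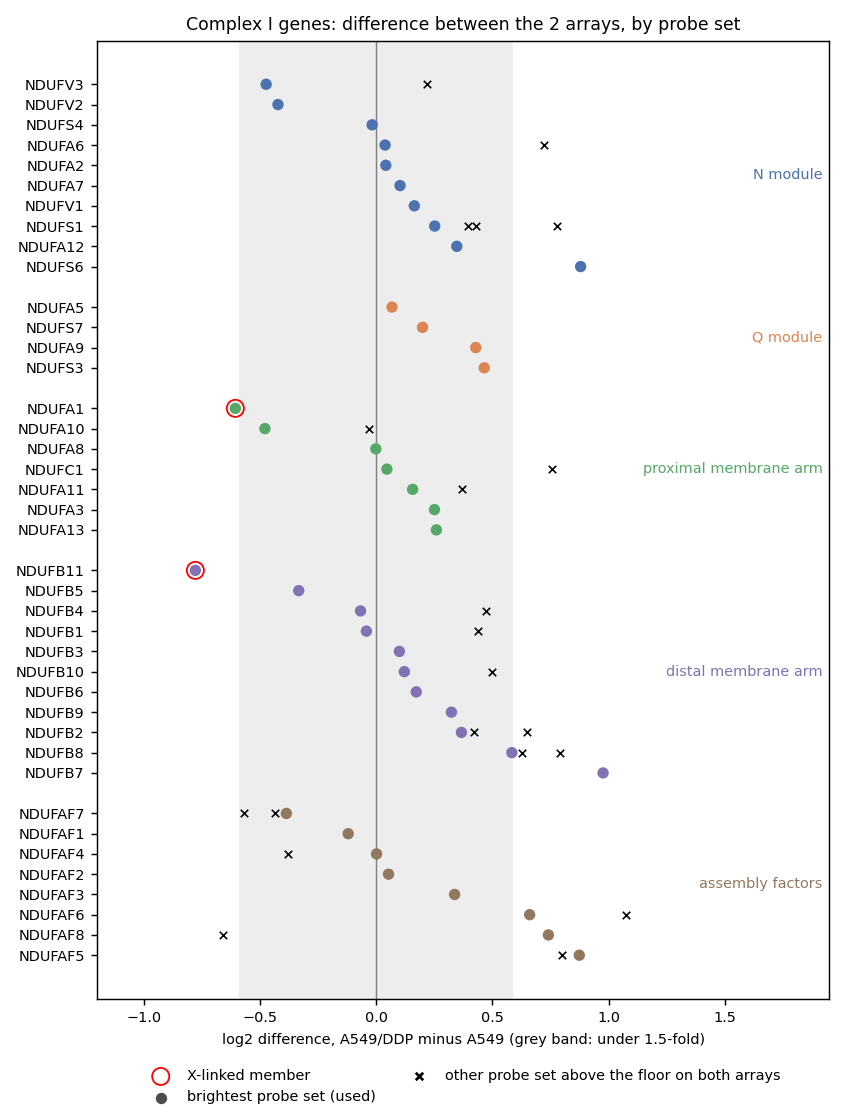
Log2 difference between the A549/DDP-labelled array and the parental array for each complex I gene (filled circles, brightest probe set), with crosses for its other probe sets above the floor on both arrays and red rings around the 2 X-linked genes. Most circles lie inside the grey band of less than 1.5-fold, and the 2 circles to its left are the X-linked genes NDUFB11 and NDUFA1.

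Of the 40 members, 16 had 2 or more probe sets above both floors. Among them were 11 whose probe sets all went one way and 5 whose probe sets did not (NDUFAF4, NDUFAF8, NDUFB1, NDUFB4 and NDUFV3). The other 24 members rest on 1 such probe set, NDUFS6, NDUFB7, NDUFA1 and NDUFB11 among them.

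NDUFA1 and NDUFB11 are the 2 measured members on the X chromosome, and they were the 2 lowest of the 40. The whole chromosome was lower on the A549/DDP-labelled array: the median difference was -0.63 over 417 expressed X-linked genes, of which 344 were lower, while the medians of the 22 autosomes lay between -0.11 and 0.14. NDUFA1 (-0.61) and NDUFB11 (-0.78) lay near that median. The same held for their neighbours. Of the 20 nearest expressed genes, 10 on each side, 19 were lower around NDUFA1, with a median of -0.63, and 14 around NDUFB11, with a median of -0.60. Without these 2 genes, a choice made after seeing the data, the 38 autosomal members had a median of 0.14, with 28 higher, 10 lower and 0 at least 1.5-fold lower. Of the 12721 expressed autosomal genes 6547 were higher and 6174 lower, with a median of 0.02. COX7B, an X-linked subunit of complex IV, differed by -0.26.

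The members past 1.5-fold in the other direction did not lie in chromosomal neighbourhoods that were shifted as far. The neighbours of NDUFB7, on chromosome 19, had a median of -0.02, those of NDUFAF8, on chromosome 17, of -0.06, and those of NDUFAF5, on chromosome 20, of 0.11. Around NDUFS6, on chromosome 5, the median was 0.19 and 13 of 20 neighbours were higher, and around NDUFAF6, on chromosome 8, it was 0.14.

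**Figure D3:**
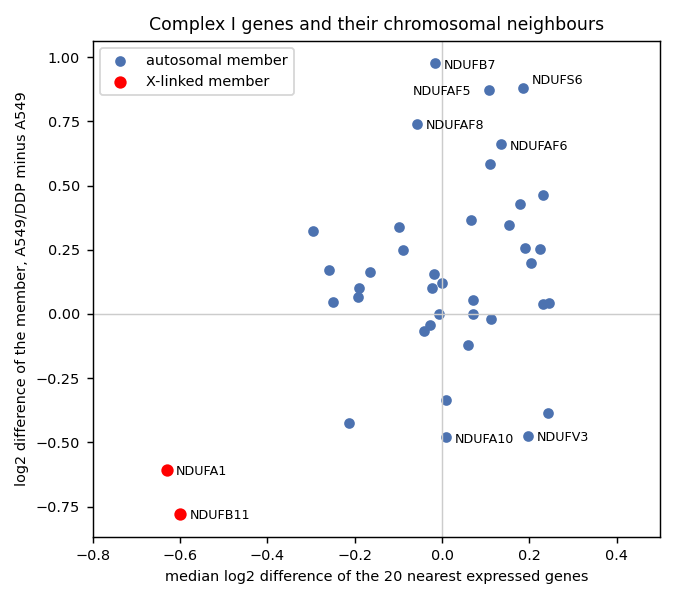
Log2 difference of each of the 40 complex I genes (vertical axis) against the median log2 difference of the 20 nearest expressed genes on its chromosome (horizontal axis). The 2 X-linked genes (red) stand apart at the lower left, with neighbour medians of -0.63 and -0.60, while NDUFB7, NDUFS6, NDUFAF5, NDUFAF8 and NDUFAF6 are high above neighbours whose medians lie between -0.06 and 0.19.

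The promoters of the 2 lowest and the 2 highest members are shown, because these genes lie at the ends of the range. Each window runs from 250 bases before to 50 bases after the start of the gene in RefSeq (GRCh38.p14), and is printed 5′ to 3′ on the strand of the gene. NDUFB11 lies at chrX:47144653-47144952 (minus strand), NDUFA1 at chrX:119871582-119871881 (plus strand), NDUFB7 at chr19:14572017-14572316 (minus strand) and NDUFS6 at chr5:1801157-1801456 (plus strand). Capitals mark the letters GCATGCGC, part of the motif of the transcription factor NRF1, CCGGAAG, the core of ETS factors such as GABP, and AAGATGGC, part of the motif of YY1, searched on both strands. These factors are known as regulators of nuclear genes for respiratory subunits.
NDUFB11: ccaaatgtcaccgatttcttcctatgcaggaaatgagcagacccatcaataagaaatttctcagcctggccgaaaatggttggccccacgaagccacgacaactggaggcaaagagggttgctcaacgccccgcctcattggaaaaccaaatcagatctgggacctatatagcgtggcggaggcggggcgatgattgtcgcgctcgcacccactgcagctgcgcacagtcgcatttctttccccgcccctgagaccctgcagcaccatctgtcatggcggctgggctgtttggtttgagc
NDUFA1: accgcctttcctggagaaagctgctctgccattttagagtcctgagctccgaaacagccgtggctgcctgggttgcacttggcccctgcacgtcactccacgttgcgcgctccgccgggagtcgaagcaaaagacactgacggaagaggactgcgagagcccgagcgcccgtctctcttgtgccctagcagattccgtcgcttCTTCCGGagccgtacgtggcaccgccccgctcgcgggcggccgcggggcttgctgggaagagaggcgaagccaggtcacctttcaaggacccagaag
NDUFB7: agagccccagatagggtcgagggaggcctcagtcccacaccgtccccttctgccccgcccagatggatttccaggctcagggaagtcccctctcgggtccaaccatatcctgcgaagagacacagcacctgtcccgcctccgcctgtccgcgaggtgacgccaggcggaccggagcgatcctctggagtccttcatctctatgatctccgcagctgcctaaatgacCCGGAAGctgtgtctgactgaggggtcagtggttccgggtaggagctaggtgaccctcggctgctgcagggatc
NDUFS6: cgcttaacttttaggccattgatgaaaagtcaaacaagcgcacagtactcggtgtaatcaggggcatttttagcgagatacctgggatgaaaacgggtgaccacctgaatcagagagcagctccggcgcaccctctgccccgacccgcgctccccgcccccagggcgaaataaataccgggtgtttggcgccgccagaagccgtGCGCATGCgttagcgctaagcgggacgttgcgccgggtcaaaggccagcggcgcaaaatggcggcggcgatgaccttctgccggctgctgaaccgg
NDUFA1 and NDUFB7 each held 1 ETS match, although NDUFA1 was among the lowest members and NDUFB7 was the highest. NDUFS6 held 1 NRF1 match, and none of these letters was found in the window of NDUFB11.

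Over the members as a whole, RefSeq windows were at hand for 38 genes, some with several starts, 50 windows in all. The NRF1 letters were in 8 of the 50 windows (16.0%) and in 3.05% of all 35116 windows of the same length. The ETS letters were in 8 (16.0%) against 10.3%, and the YY1 letters in 9 (18.0%) against 2.89%. At least 1 of the 3 was in 20 windows (40.0%) against 14.9%. Windows of the same gene overlap in part, and a match is a description of the letters only. NRF1 letters were in the windows of NDUFA5, NDUFA6, NDUFA8, NDUFAF4, NDUFAF5, NDUFB4, NDUFS6 and NDUFS7, and these 8 genes had a median difference of 0.05, beside 0.12 for the 29 other measured genes. For the ETS letters the medians were 0.26 over 7 genes and 0.08 over 30, and for the YY1 letters 0.22 over 8 genes and 0.07 over 29. These medians are descriptions without a test.

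The measured core subunits encoded in mitochondrial DNA were lower, unlike the median nuclear member. Of the 7 complex I subunits encoded there only 3 were measured, ND2, ND4 and ND6, all of them lower on the A549/DDP-labelled array. ND6, a membrane-arm subunit and the only protein encoded on the light strand of mitochondrial DNA, had a log2 signal of 11.55 on the parental array and 10.47 on the other, and was 2.12-fold lower. No range of like-brightness genes was taken for ND6. For NDUFA8, a nuclear member of similar signal (11.10 on both arrays), that range reached down to -1.30. ND2, a proton-pumping subunit, had 15.35 and 14.79, and was 1.47-fold lower. ND4, a further pumping subunit, had 15.40 and 15.17, with differences of -0.23 and -0.28 by its 2 probe sets. The lower signal was not specific to complex I: all 10 probe sets of the 7 measured genes encoded in mitochondrial DNA were lower, by differences from -1.08 to -0.10, with a median of -0.24 over genes. Transcripts of the same strand are processed from shared precursors, so these genes are not all independent of each other.

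Other genes of complex I and of the respiratory chain were described from lists. NDUFAB1, the acyl carrier subunit, and 11 assembly factors with other names had a median difference of 0.07, 6 higher and 6 lower. TMEM126B (0.63) and ACAD9 (0.59) were just past 1.5-fold, and higher by each of their 2 probe sets above the floor. Complex III had a median of 0.22 over 13 genes, with the assembly factor BCS1L 1.58-fold higher, and complex V one of 0.15 over 19 genes, with the membrane-ring gene ATP5MC2 1.58-fold lower. The median of complex II was 0.01 over 7 genes. Its assembly factors SDHAF4 and SDHAF3 were 2.87-fold and 1.69-fold lower. The median of complex IV was -0.04 over 33 genes. COX7A2L, which joins complexes III and IV, was 1.61-fold lower, with 13.65 on the parental array and 12.96 on the other, and COX6A2, a muscle-type subunit close to the floor, was 2.42-fold lower. COXFA4, formerly counted with complex I under the name NDUFA4 and now with complex IV, was 1.39-fold higher. None of these genes of complexes II to V was 3-fold apart.

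**Figure D4:**
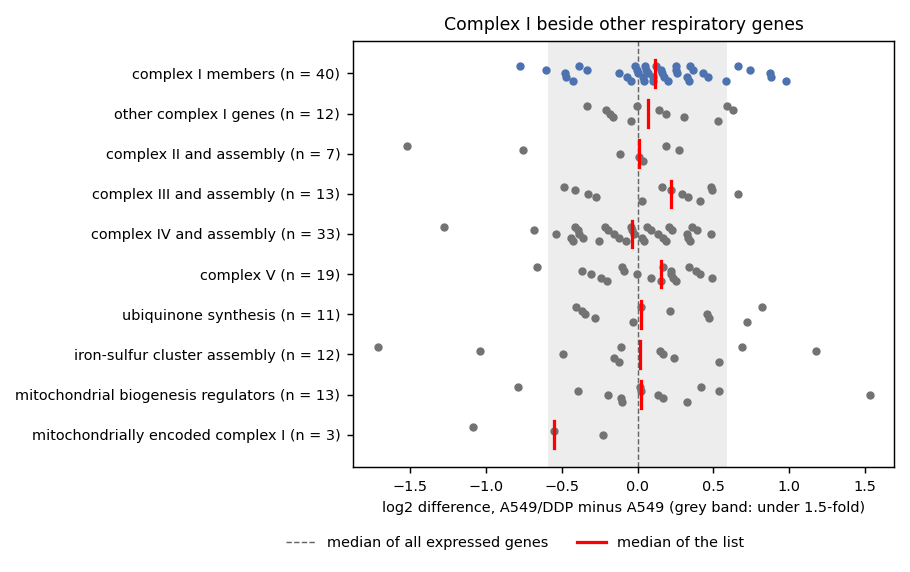
Log2 difference between the A549/DDP-labelled array and the parental array for each expressed gene (dots) of complex I and of 9 other respiratory lists, with red bars at the list medians and a dashed line at the median of all expressed genes. The medians of nuclear lists lie between -0.04 and 0.22, while the 3 measured complex I genes of mitochondrial DNA are all to the left of the dashed line.

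The genes that supply or regulate complex I were as mixed. Ubiquinone synthesis, which makes the electron acceptor of the complex, had a median of 0.02 over 11 genes, with PDSS1 1.76-fold and COQ3 1.65-fold higher. Iron-sulfur cluster assembly had a median of 0.02 over 12 genes and a wide range. IBA57, which acts late in the pathway, was 3.28-fold lower in its brightest probe set, but a dimmer one, also above the floor on both arrays, went the other way. HSCB, a cochaperone, was 2.06-fold lower, FDX2, a ferredoxin, 2.26-fold higher and BOLA3 1.61-fold higher. Regulators of mitochondrial biogenesis had a median of 0.02 over 13 genes. The coactivator PPARGC1B was 2.89-fold higher by a dim probe set, with 6.51 on the parental array and 8.04 on the other, and PPRC1, a related coactivator, was 1.72-fold lower, with 11.04 and 10.25.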

How the data were processed

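Total RNA of A549 and A549/DDP was hybridised on Affymetrix 3′ expression arrays, 1 for each line. The authors deposited log2 signals for 54675 probe sets. Per the submitters' notes on processing, MAS5 and affy were used, whose versions are not given in the sources used here, while the methods name SCAN with UPC. The trimmed mean linear signal was 500.1 on both arrays (2% left out at each end), and the log2 values were used as deposited, as MAS5 signals scaled by the authors. MAS5 subtracts mismatch signals, so dim values scatter widely, and the number of arrays limits the precision.

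A further table deposited by the authors holds folds and 4 columns of signals and calls for cells named A549-LV5 and A549-ZNF300, which are no samples of this series. It was not used.

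Of the probe sets, 41097 had 1 annotated gene, and 41043 of these were given RefSeq symbols (GRCh38.p14). Each gene was read from its probe set of highest mean log2 signal. Values below the median of an array (62 control probe sets left out) were raised to it, and a gene at or above this floor on at least 1 array was called expressed. Differences are A549/DDP minus A549. No p-value was computed. All members are described; those past 1.5-fold, core subunits, the extremes of each structural group, and up to 2 genes past 1.5-fold in each direction of other lists are given in full. A further item is not reported here. The members and lists were chosen with earlier results of these data known. The 1.5-fold threshold was set because the subunits are bright and the lists were known to shift little. Alternatives were 3 scalings, 3 floors and 3 choices of probe set, and 2 more were added after seeing the data. The steps were tested on simulated data. Python 3.11.15, pandas 2.3.3 and statsmodels 0.14.6 were used, with loess at a span of 0.3.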

Additional observations from a re-analysis of the deposited data

How the results depend on the processing

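Over 9 planned and 2 added alternatives, the median difference of the complex I members ranged from 0.10 to 0.25 and stayed above 0, and 0 members were 3-fold apart in either direction in each. At 1.5-fold, 8 members in place of 5 were higher with each gene's dimmest detected probe set, and the number that were lower was 1 after median centring, 5 with a median taken across probe sets and 0 over autosomal members only. Without probe sets marked _x_at or _s_at, which leaves 27 members, the median of the distal membrane arm was 0.43. The median of the proximal membrane arm was -0.002 there, and that of the assembly factors was -0.03 with the dimmest probe set and with the median over probe sets. NDUFAF8 turned to -0.66 with those 2 settings and without _x_at and _s_at probe sets, where a dim probe set replaces the bright one. With its dim probe set, below the floor on the parental array, NDUFB7 had only a lower bound of 0.28. NDUFA1, NDUFB11, NDUFAF5, NDUFAF6 and NDUFS6 were past 1.5-fold in the same direction wherever they gave a value, except NDUFA1 after median centring (-0.57). NDUFA1, NDUFB11 and NDUFS6 have 1 probe set each, so the choices of probe set could only keep or drop their value. For these 3 genes only the 3 scalings could change the value, and agreement over the other alternatives was fixed in advance.

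Counts over all genes depend on the floor. At 3-fold, 281 higher and 287 lower genes became 1720 and 1935 without a floor, 673 and 860 with it at the 25th percentile, and 127 and 122 at the 75th. At 1.5-fold, 2049 and 2369 became 4792 and 5248, 3814 and 4309, and 1153 and 1233. The floor changed no member's value. No paired analysis was possible because each line had 1 array.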
